A study of Drosophila melanogaster with 3 samples.

Results

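Many Drosophila genes carry several promoters that lie far apart along the chromosome. The set described here comprised the protein-coding genes on the main chromosome arms whose most upstream and most downstream annotated start sites were 5000 bp or more apart, which held for 803 of 13945 genes. Start sites within 250 bp of each other were merged, which left 2571 sites in these genes, out of 18012 sites in all genes. A site was called bound when the summit of a peak for the factor M1BP lay within 250 bp, and 299 of the 803 genes had at least 1 bound site. These 299 genes held 1027 sites, of which 342 were bound, and they are the subject of the comparisons below. Because the 299 genes were chosen by measured binding, the shares of bound sites are given as a description.

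The binding data came from chromatin immunoprecipitation and sequencing of whole Drosophila melanogaster embryos, males and females pooled, aged 0 to 24 h. All embryos were of a single transgenic line that stably expressed CG9797, the gene also called M1BP, with a C-terminal GFP. The 3 biological replicates formed the only group, with no untagged or wild-type group among them, and 1 control experiment is listed for them in the labels. A free-text line of the labels calls the libraries input controls, whereas their assay title, antibody field and listed control describe immunoprecipitated material, and they were analysed as immunoprecipitated libraries. A whole embryo over this window mixes all tissues and stages, so a site bound in few cells and a site bound weakly in many cells cannot be told apart. Sequencing depth is unknown, since the deposited lists give no read counts.

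M1BP (Motif 1 binding protein) is a zinc-finger protein that binds Motif 1, an element found in core promoters of many housekeeping genes, and it is known for its association with paused RNA polymerase II. Alternative promoters let a gene be transcribed from different start points in different cells or at different times, with different first exons and at times different proteins. Which of its promoters carry a factor such as M1BP is therefore a property of each start site rather than of the gene.

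M1BP lay mostly at the most upstream start site. In the thresholded peak list, 235 of the 299 most upstream sites were bound (78.6%), against 44 of the 299 most downstream sites (14.7%) and 63 of the 429 sites in between, called internal here (14.7%). The most upstream share was 79.5%, 74.1% and 76.7% in the strongest peaks of replicates 1, 2 and 3 (76.8% ± 2.73, SD, n = 3). The most downstream share was 13.5%, 17.5% and 16% (15.7% ± 2.00, SD, n = 3), and the internal share was 15.8%, 20.1% and 11.0% (15.6% ± 4.56, SD, n = 3). With peaks at or above the median signal the internal share was 9.23%. The upstream share stood above both other shares in every replicate, with no overlap. The difference between most upstream and most downstream sites was 63.9 percentage points in the thresholded list. It was 66.0, 56.6 and 60.7 points in the replicates (61.1 ± 4.72, SD, n = 3), positive in 3 of 3. The two-sided exact sign-flip permutation test gave p = 0.25, the smallest value that 3 replicates allow. Since p could not be lower, and genes were chosen by binding in the same lists, the test cannot decide and the difference remains a description. Most genes had a single bound site, 261 of 299 in the thresholded list (87.3%) and 86.1%, 82.2% and 92.7% of the bound genes in the replicates. Bound genes with several sites less than 5000 bp apart were similar, at 83.6% (85.1%, 81.6% and 82.7% in the replicates). The replicate ranges of these sets overlapped.

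Read over all genes with distant start sites, bound or not, internal and most downstream sites were bound less often than the sites of genes with a single start site. Of the 803 most upstream sites 235 were bound (29.3%), against 3255 of 11280 sites of genes with only 1 merged start site (28.9%). In the replicates these shares were 28.5%, 29.5% and 26.3% for the most upstream sites (28.1% ± 1.66, SD, n = 3) and 29.3%, 25.5% and 27.4% for the genes with 1 site (27.4% ± 1.88, SD, n = 3), ranges that overlapped. Internal sites were bound in 63 of 965 cases (6.53%; 6.94% ± 2.70 in the replicates, SD, n = 3). Most downstream sites were bound in 44 of 803 cases (5.48%; 5.77% ± 1.09, SD, n = 3). The background over all 18012 sites was 25.1% in the thresholded list, and 25.1%, 23.1% and 23.5% in replicates 1, 2 and 3. Counted by gene, 37.2% of the 803 genes had a bound site, against 31.1% of all 13945 protein-coding genes. A gene with more sites has more chances to be counted, but the part of site number in these shares was not tested. In the 1862 genes with several sites less than 5000 bp apart the share was 42.3%. Their 788 bound genes held fewer internal sites, 218 against 429 in the 299 genes. The share of the 803 genes bound was 35.9%, 39.9% and 34.2% in the replicates (36.7% ± 2.88, SD, n = 3). It was 22.0% without replicate 1, 28.1% without replicate 2 and 23.5% without replicate 3, where a peak had to be found in both remaining replicates, 20.9% with peaks found in all 3, and 22.8% with peaks at or above the median signal.

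**Figure D1:**
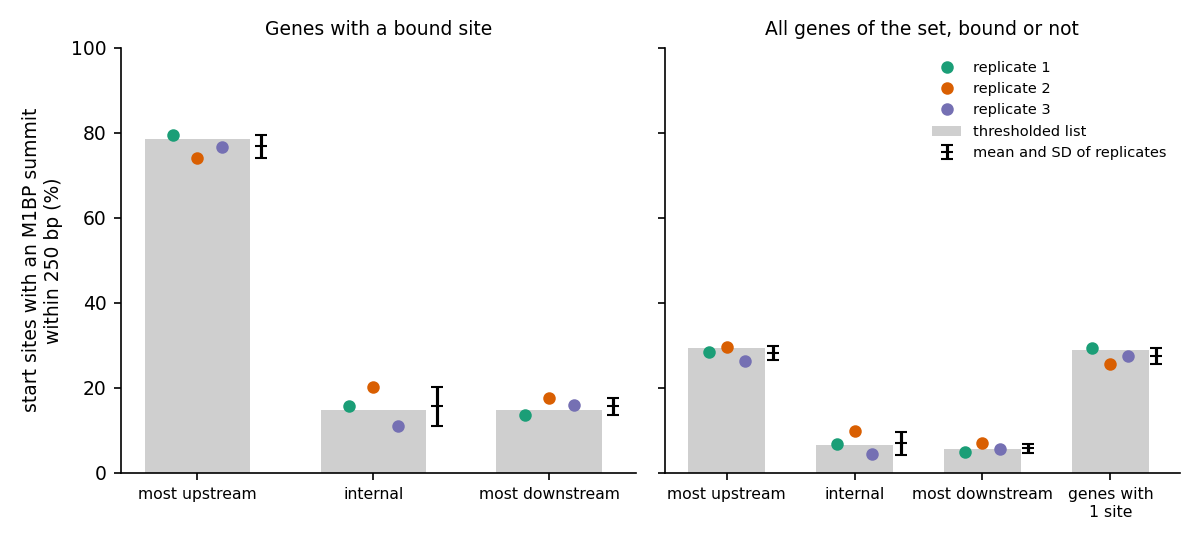
Share of start sites with an M1BP summit within 250 bp (y axis, percent) by position in the gene, for the 299 genes with a bound site (left) and for all 803 genes with genes of 1 site beside them (right). Grey bars are the thresholded list, coloured points the strongest peaks of each replicate, and black marks the mean and SD over the 3 replicates; the most upstream sites reach 78.6% on the left and 29.3% on the right, near the 28.9% of genes with 1 site.

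The windows below show the genes of highest signal whose only bound site was the most upstream (jar and Sxl) or the most downstream (CG34355 and lute), among those with no start of another gene within 1000 bp of the bound site. Each is given with its other outermost site, so that a bound and an unbound promoter of 1 gene can be set side by side. Each window runs from 150 bases before to 30 bases after the start used by most transcripts, except the bound CG34355 site. There only 30 bases are given, because 102 bases of the longer window lie in an annotated UTR, against 30 in each other window. Sequences are from the NCBI Release 6 genome (dm6 coordinates), written 5′ to 3′ on the strand of the gene, with matches to Motif 1 in capitals. The jar windows lie on the minus strand at chr3R:24271204-24271383 (bound) and chr3R:24259459-24259638 (unbound), and those of Sxl on the minus strand at chrX:7098024-7098203 (bound) and chrX:7092854-7093033 (unbound). The CG34355 windows lie on the plus strand at chr3R:23820578-23820607 (bound) and chr3R:23803709-23803888 (unbound), and those of lute on the plus strand at chr3R:17385741-17385920 (bound) and chr3R:17379794-17379973 (unbound). Both lute windows also overlap the annotated gene Brf, and the unbound CG34355 window overlaps CG33111.
jar most upstream site, bound: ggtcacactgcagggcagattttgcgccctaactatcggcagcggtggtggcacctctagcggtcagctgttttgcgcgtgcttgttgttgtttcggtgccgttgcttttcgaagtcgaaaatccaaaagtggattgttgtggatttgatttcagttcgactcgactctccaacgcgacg
jar most downstream site, unbound: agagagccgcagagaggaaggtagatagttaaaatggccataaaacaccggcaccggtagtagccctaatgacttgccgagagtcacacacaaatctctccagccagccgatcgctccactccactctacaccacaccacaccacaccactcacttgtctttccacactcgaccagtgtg
Sxl most upstream site, bound: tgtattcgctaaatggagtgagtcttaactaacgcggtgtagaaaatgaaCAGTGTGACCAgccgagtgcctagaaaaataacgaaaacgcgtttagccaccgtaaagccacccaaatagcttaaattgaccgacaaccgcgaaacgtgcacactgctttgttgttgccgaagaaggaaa
Sxl most downstream site, unbound: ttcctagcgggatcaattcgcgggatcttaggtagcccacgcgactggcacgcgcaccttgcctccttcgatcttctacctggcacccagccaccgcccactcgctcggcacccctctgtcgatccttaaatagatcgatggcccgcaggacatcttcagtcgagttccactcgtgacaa
CG34355 most downstream site, bound: ctcccgctgCGGTCACACTAagtccgaagc
CG34355 most upstream site, unbound: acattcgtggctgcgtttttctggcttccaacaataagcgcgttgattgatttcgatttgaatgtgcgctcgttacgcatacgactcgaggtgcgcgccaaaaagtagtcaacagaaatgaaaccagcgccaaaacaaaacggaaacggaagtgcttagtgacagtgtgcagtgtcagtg
lute most downstream site, bound: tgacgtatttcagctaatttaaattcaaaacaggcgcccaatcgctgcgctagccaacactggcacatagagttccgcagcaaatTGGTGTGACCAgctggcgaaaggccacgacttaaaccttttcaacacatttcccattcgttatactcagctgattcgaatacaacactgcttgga
lute most upstream site, unbound: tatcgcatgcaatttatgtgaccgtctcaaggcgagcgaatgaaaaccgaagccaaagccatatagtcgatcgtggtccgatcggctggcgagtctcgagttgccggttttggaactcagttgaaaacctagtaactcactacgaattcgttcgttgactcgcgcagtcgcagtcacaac
The bound windows of Sxl and CG34355 each held an exact Motif 1 match, with its leftmost base at −100 and −5 bp from the start site. The bound lute window held a match with 1 mismatch, with its leftmost base at −65 bp. The bound jar window held none, but an exact match had its leftmost base at −151 bp, just outside the printed stretch. No match with up to 1 mismatch was found within 250 bp of any of the 4 unbound sites.

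Among genes bound only at the most upstream site, with no other gene's start within 1000 bp of it, the highest signal was at jar, which encodes myosin VI. The signal is the peak caller's score, given by the authors without a stated scale. Its bound site (FBgn0011225, peak at chr3R:24271154-24271588, dm6) had a signal value of 3087, and the peak there ranked 39, 12 and 107 among the 30000 entries of replicates 1, 2 and 3. The internal and most downstream sites of jar, 7391 and 11745 bp further along, had no thresholded peak, and in the relaxed lists had entries only in replicate 2 (ranks 6806 and 6360) and, at the most downstream site, replicate 3 (rank 20674). Sxl encodes the splicing regulator that controls sex determination, and it is a textbook case of an early establishment promoter placed downstream of a later maintenance promoter. Its most upstream site had a signal of 2919 and ranks of 49, 31 and 60. The remaining 3 Sxl sites, including the most downstream 5170 bp away, had no entry in any of the 5 lists. At both genes the bound site thus stood among the strongest entries of every replicate, and the other sites were far below it or unlisted.

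Several others of the 8 strongest genes of this kind encode proteins of cell junctions, polarity and the cytoskeleton. Such genes were not counted over all 200. The bound site of cindr, a CD2AP-family adaptor, had a signal of 2771 and ranks of 60, 24 and 309. At cno, the afadin homologue of adherens junctions, the signal was 2668 with ranks of 75, 47 and 74. At scrib, a scaffold of the basolateral domain, it was 2505 with ranks of 99, 86 and 52, and the only other start site lay 32263 bp downstream. The spectraplakin gene shot, which links actin and microtubules, had a signal of 2343 at its most upstream site, with ranks of 137, 110 and 95. Its 3 other sites, up to 44409 bp away, had no thresholded peak and ranked no higher than 6832 in any replicate. CG2991 (signal 2458; ranks 77, 94 and 137) and Wdr62, a WD-repeat protein of the mitotic spindle (signal 2393; ranks 119, 71 and 123), complete the 8 strongest. All 8 were chosen among the 85 of 200 such genes whose bound site had no start of another protein-coding gene within 1000 bp. Matches to Motif 1 with up to 1 mismatch lay within 100 bp of the start at Sxl, cno, CG2991, Wdr62 and shot, and not at jar, cindr or scrib.

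The reverse arrangement, with only the most downstream site bound, held for 32 genes, and 23 of them had no other gene's start within 1000 bp of it. The highest signal was at CG34355, 1840 with ranks of 355, 197 and 299, 16733 bp downstream of its unbound most upstream site, where replicate 2 alone had an entry (rank 8382). At lute the signal was 1662 with ranks of 428, 276 and 521, and its most upstream site 5947 bp away had no entry in any list. CG3625 had 1652, with ranks of 426, 182 and 772, and its internal site ranked 3504 in replicate 2, inside the strongest peaks of that replicate. The KH-domain RNA-binding protein gene mub had 1216, with ranks of 1020, 457 and 1313, at a site 34789 bp from the most upstream one, which was in no list. RapGAP1, a GTPase-activating protein for Rap1, had 1179 at its most downstream site, with ranks of 717, 1278 and 645, 48406 bp from its most upstream site. An internal site of RapGAP1 ranked 2845 in replicate 1 and was unlisted elsewhere. CG33144 (1223; ranks 942, 503 and 1110), CG32473 (1047; ranks 657, 1925 and 997) and TM9SF4, of the transmembrane 9 family (837; ranks 1402, 1342 and 1797), complete the 8. Motif 1 lay within 100 bp of the bound start in CG34355, lute, CG3625, CG33144 and CG32473, and TM9SF4 had a DRE instead. None of the 8 unbound most upstream sites had a Motif 1 match.

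Binding only at internal sites was seen in 30 genes, and the 4 strongest of the 25 without a neighbouring start are given. At chb, which encodes the microtubule plus-end protein CLASP, the middle of 3 sites had a signal of 2050 and ranks of 143, 228 and 143. The tropomyosin gene Tm1 had 2 bound internal sites among its 5. The stronger, with 1838 and ranks of 317, 118 and 1130, held an exact Motif 1 match. The weaker had 286 and ranks of 4145, 5090 and 14316, so only replicate 1 placed it among its strongest 4598 peaks. At tmod, whose product tropomodulin caps actin filaments, 1 internal site of 4 was bound with 1452 and ranks of 568, 413 and 667. CG32264 had 1391 at the fourth of its 7 sites, with ranks of 664, 327 and 1199, and its most upstream site ranked 4343 in replicate 1, inside that replicate's strongest peaks. Motif 1 lay at the strongest bound site of chb, Tm1 and CG32264, and not at that of tmod.

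**Figure D2:**
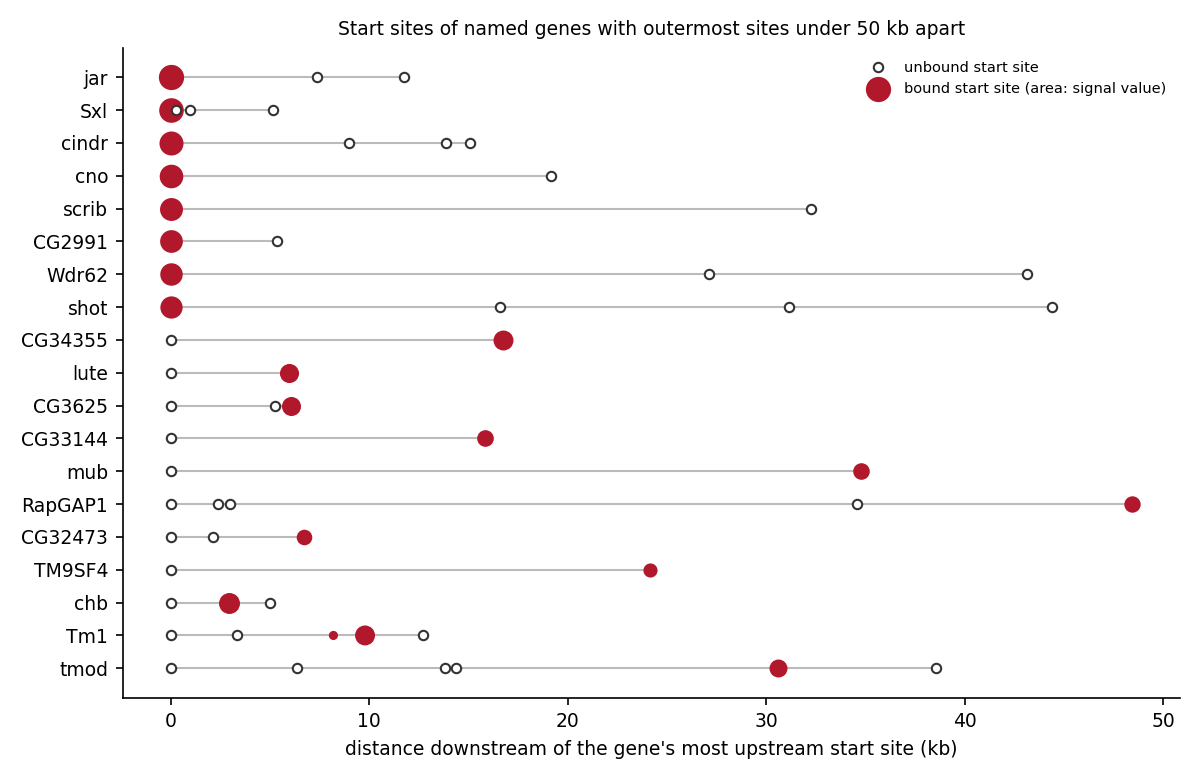
Start sites of the named genes with outermost sites under 50 kb apart, drawn to scale as distance downstream of the most upstream start (x axis, kb), each row a gene. Filled circles are bound sites with area proportional to signal, from 286 at the weaker Tm1 site to 3087 at jar, and open circles are sites with no thresholded summit within 250 bp; the first 8 rows have the filled circle at 0, the next 8 at the right end, and the last 3 in between.

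Both outermost sites were bound in 10 genes, out of 44 with a bound most downstream site. For comparison, 235 of all 803 genes (29.3%) had a bound most upstream site. Whether binding at one end went with binding at the other was not tested. In 9 of the 10 genes a bound site had another gene's start within 1000 bp. The exception was pyd, the ZO-1 homologue of cell junctions, with 515 at its most upstream and 317 at its most downstream site, 85607 bp apart. Its replicates differed: the upstream peak ranked 2747 and 4150 in replicates 1 and 3 and was unlisted in replicate 2, and the downstream peak ranked 6603 and 1728 in replicates 1 and 2 and was unlisted in replicate 3. In no replicate were both pyd sites among the strongest 4598 peaks. Over the 10 genes the median signal was 516 at the most upstream and 475 at the most downstream sites, and the upstream site was the stronger in 6. The replicates held 9, 13 and 4 genes with both ends bound. In all, 38 genes had several bound sites. In 5 of these (CAH3, CG14434, Trpm, Usp2 and ttv) 1 peak was the strongest for more than 1 site, since its summit lay within 250 bp of both, so the sites were not separately measured. The strongest bound site of the 38 genes was the most upstream in 19, internal in 10 and the most downstream in 5, and in 4 the highest value was shared by 2 sites through 1 peak.

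Genes with several bound sites included cases of opposite order. PAN3, a subunit of the PAN deadenylase, had a signal of 3171 at its most upstream site, which ranked 14, 178 and 5 in the replicates and lies beside the start of CG32486, and 800 at an internal site, which ranked 1332, 1651 and 2404. SNF4Agamma, the gamma subunit of the AMP-activated kinase, had 268 at its most upstream site (ranks 3792, 22032 and 2721) and 1455 at an internal site (ranks 302, 1142 and 341). Both genes were chosen for mention after their values were seen.

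Bound upstream sites also had a higher median signal than bound sites further in, as a description of the values that chose them. The median signal was 744 at the 235 bound most upstream sites (interquartile range 416 to 1525, highest 4118). It was 479 at the 63 bound internal sites (330 to 731, highest 2050) and 516 at the 44 bound most downstream sites (326 to 945, highest 2003), against 669 over the 4516 bound sites of all genes. By rank, where a lower number is stronger, the most upstream sites also had the strongest median in each replicate. Median ranks at the most upstream sites were 1639, 1356 and 1396 in replicates 1, 2 and 3. At internal sites they were 2605, 1998 and 2451, and at most downstream sites 2641, 1688 and 2531, with sites unlisted in a replicate left out. Of the most upstream sites 159 of 235 (67.7%) were found again among the strongest peaks of all 3 replicates, against 32 of 63 internal sites (50.8%) and 21 of 44 most downstream sites (47.7%). Replicates also recovered sites of different base composition unequally. The 1027 sites were split into terciles by GC, which held 130, 129 and 83 bound sites from low to high. Of the bound sites in the lowest tercile, replicate 1 found 93.8% again, replicate 2 73.1% and replicate 3 86.2%. In the middle tercile they found 86.8%, 88.4% and 79.8%, and in the highest 75.9%, 75.9% and 66.3%. The share thus fell from low to high GC in replicates 1 and 3, and was highest in the middle tercile in replicate 2. The part of base composition in the shares by position was not tested.

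**Figure D3:**
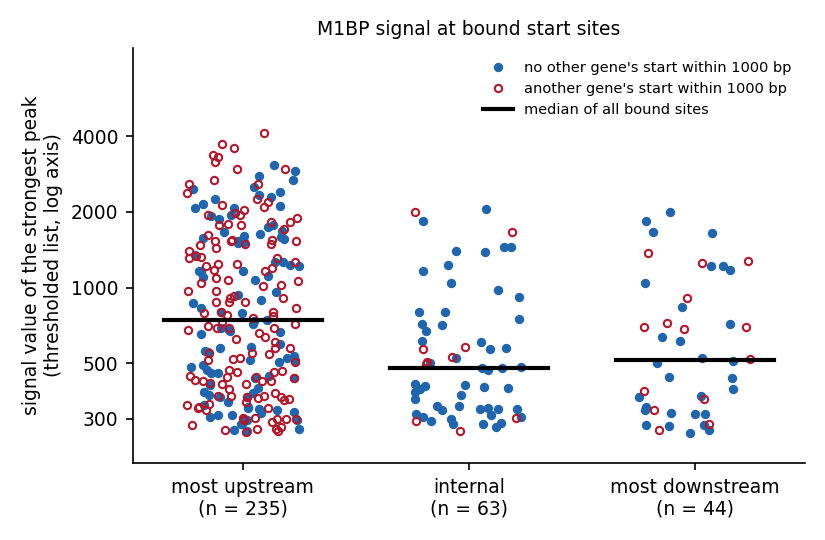
Signal value of the strongest thresholded peak (y axis, log scale) at each bound start site, by position in the gene, with the median as a black line. Filled points have no start of another gene within 1000 bp and open points have one; medians are 744, 479 and 516, and the ranges of the 3 classes overlap widely.

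The starts of neighbouring genes were unevenly spread over the positions, and they moved with binding. Another protein-coding gene began within 1000 bp of 155 of the 299 most upstream sites (51.8%), against 34 of 429 internal (7.93%) and 28 of 299 most downstream sites (9.36%). A shared peak cannot be assigned to either gene. Without such a neighbour, 99 of 144 most upstream sites were bound (68.8%; 67.6% ± 4.17 in the replicates, SD, n = 3), against 53 of 395 internal (13.4%; 14.1% ± 3.85) and 30 of 271 most downstream sites (11.1%; 11.9% ± 1.87). With a neighbour, 136 of 155 most upstream (87.7%), 10 of 34 internal (29.4%) and 14 of 28 most downstream sites (50%) were bound. The upstream excess was present in both strata, and in each class sites beside a neighbour were bound more often. Over all 803 genes, most upstream sites without a neighbour were bound in 99 of 552 cases (17.9%; 17.6% ± 1.78, SD, n = 3). Genes with 1 site and no neighbour were bound in 1002 of 6562 cases (15.3%; 14.7% ± 0.478). With a neighbour, 136 of 251 most upstream sites were bound (54.2%; 51.3% ± 1.40), against 2253 of 4718 sites of genes with 1 site (47.8%; 45.03% ± 4.35). Within each stratum the most upstream share was thus the higher in every replicate, which the pooled shares above did not show. Internal sites without a neighbour were bound in 5.95% of 891 cases (6.21% ± 2.31) and most downstream ones in 3.99% of 751 (4.22% ± 0.887).

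The excess at the most upstream site was present in genes of every number of start sites, and was smaller in the longest genes. In genes with 2 sites the most upstream was bound in 83 of 104 (79.8%) and the most downstream in 25 of 104 (24.0%). From 2 sites to 6 or more, the most upstream share lay between 73.3% and 81.8%. It was 81.6%, 81.0% and 81.4% in genes spanning 5000 to 10000, 10000 to 20000 and 20000 to 50000 bp between outermost sites, but 17 of 31 (54.8%) in genes spanning 50000 bp or more. In those longest genes the replicates gave 62.1%, 59.4% and 59.4%. The most downstream share was 13.3%, 13.1%, 17.4% and 16.1% in the same order of span. In the 1862 genes with several sites less than 5000 bp apart, the most upstream site of a bound gene was bound in 79.2% and the most downstream in 31.2% (29.99%, 34.1% and 30.1% in the replicates). The most downstream share in the genes of 5000 bp or more was thus lower in every replicate, at 13.5% to 17.5%. The sets differed in their number of sites, with 218 internal sites in 788 bound genes under 5000 bp, against 429 in 299. In genes of 5000 bp or more with 2 sites, the most downstream share was 23.8%, 27.0% and 29.5% in the replicates, nearer to that of the shorter genes. The shorter genes were not limited to 2 sites, and the part of site number was not tested. Sites close together can also share a summit. By chromosome, 41.4% of 169 genes on X, 39.9% of 168 on 3R and 38.8% of 170 on 2R had a bound site, 35.5% of 155 on 3L, 31.5% of 130 on 2L and 0 of 11 on chromosome 4. Shares of all protein-coding genes on each chromosome are not given here, so whether these differences are particular to the set cannot be told.

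At bound sites the strongest summit lay mostly upstream of the start site. Its closeness to the start is in part set by the 250 bp rule that defined a bound site. The median position of the strongest summit was −72 bp at most upstream, −104 bp at internal and −74 bp at most downstream sites, with negative values upstream of the start. Summits lay upstream of the start at 206 of 235 (87.7%), 54 of 63 (85.7%) and 43 of 44 (97.7%) of these sites. Within 100 bp of the start they lay at 67.2% of most upstream and 65.9% of most downstream sites, but at 47.6% of internal sites. The annotation placed 92.5% of the internal and 88.0% of the most downstream sites in introns of longer transcripts, the rest in exons. Bound most downstream sites were in an exon in 9 of 44 cases (20.5%), against 27 of 255 unbound ones (10.6%).

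**Figure D4:**
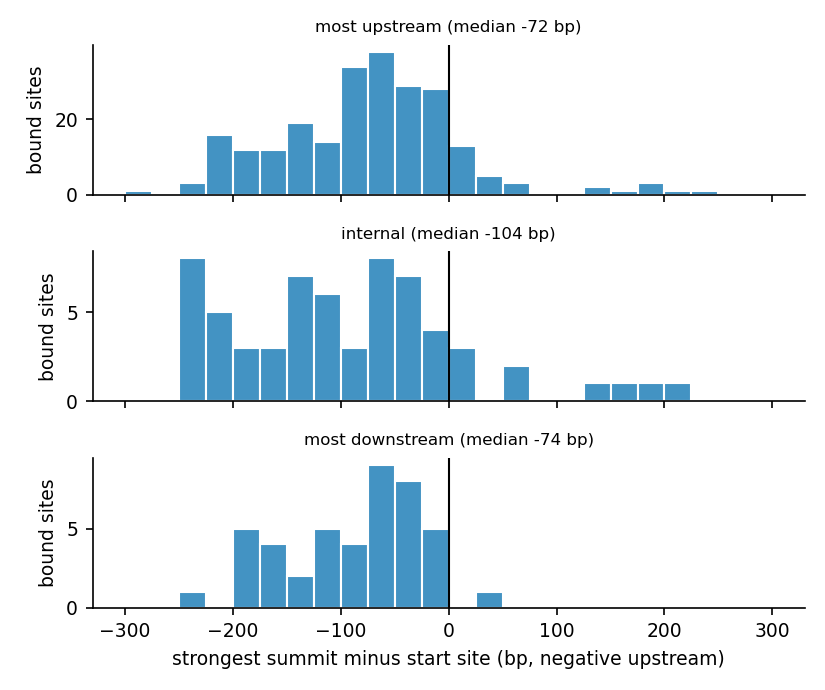
Distance of the strongest M1BP summit from the start site (x axis, bp, negative upstream of the start) for bound sites of each position, in bins of 25 bp; the y axis counts bound sites. Medians are −72, −104 and −74 bp, and the internal sites are spread more evenly up to the 250 bp limit.

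Bound and unbound sites of the same gene differed in Motif 1 content. Motifs were searched within 100 bp of the start on both strands, in the 295 genes with both kinds of site, where 334 sites were bound and 685 unbound. Motif 1 with up to 1 mismatch lay at 99 bound sites (29.6%) and 9 unbound sites (1.31%), against 8.91% of all 18012 sites. Over all genes the shares were 31.7% of bound and 1.27% of unbound sites. The difference of 28.3 percentage points within the 295 genes was 49.4 with peaks at or above the median signal and 43.0 with peaks found in all 3 replicates. In the replicates these shares were 31.0%, 24.5% and 34.1% at bound sites (29.9% ± 4.89, SD, n = 3) and 0.917%, 0.693% and 0.943% at unbound sites (0.851% ± 0.137). An exact match lay at 37 bound sites (11.1%) and at 0 unbound sites, where 3.29% of all sites had one. By gene, the motif was found only at bound sites in 96, only at unbound sites in 7, at both in 2 and at neither in 190. Of the bound most upstream sites 80 of 235 had it (34.0%), against 10 of 63 internal (15.9%) and 11 of 44 most downstream (25%). A window of 100 bp around the summit instead of the start gave the same 3 counts, although not for identical sites: 67, 9 and 10 sites had a match in both windows. Over all 4598 thresholded peaks 28.1% had a match around the summit.

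Of the other core promoter elements, the DRE, bound by the factor DREF, showed the same direction at lower frequency. Its letters TATCGATA lay at 31 bound (9.28%) and 5 unbound sites (0.730%), against 6.42% of all sites. The E-box letters CAGCTG lay at 15.9% of bound and 10.8% of unbound sites, against 13.3% of all sites. GAGAG, the core of sites for GAGA factor, lay at 31.4% of bound and 38.8% of unbound sites, against 25.02% of all. The Initiator letters TCAGT, searched on the coding strand within 10 bp of the start, lay at 8.68% of bound and 21.6% of unbound sites, against 13.5% of all. In the replicates the Initiator share was 11.8% ± 1.97 at bound and 20.8% ± 0.879 at unbound sites (SD, n = 3). At most upstream sites the Initiator was present in 6.81% of bound and 25% of unbound sites, but at most downstream sites in 18.2% and 15.7%. GAGAG was present at 25.5% of bound most upstream sites, 47.6% of bound internal and 40.9% of bound most downstream sites. TATAAA, searched on the coding strand 45 to 15 bp before the start, lay at 1.20% of bound and 1.90% of unbound sites, against 7.87% of all sites. Bound and unbound sites of all protein-coding genes differed in the same directions. There the DRE lay at 14.4% and 3.74%, the E-box at 19.5% and 11.3%, and GAGAG at 17.5% and 27.5%. The Initiator lay at 4.98% and 16.3%, and TATAAA at 1.68% and 9.94%. None of these letter strings contains another. A match shows only that the letters are present.

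**Figure D5:**
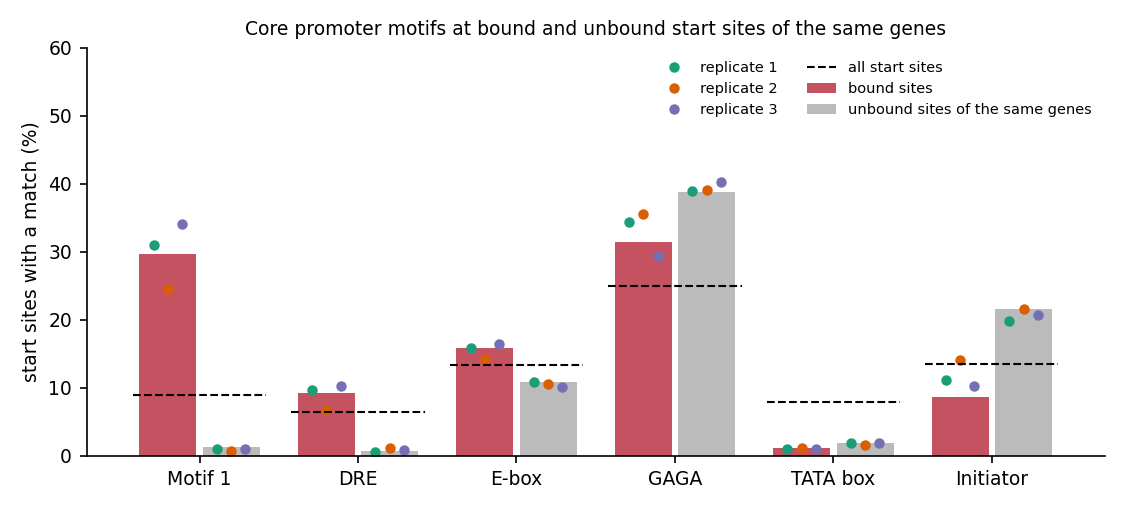
Share of start sites with a motif match (y axis, percent) at bound sites (red bars) and unbound sites (grey bars) of the same 295 genes, with the strongest peaks of each replicate as points and all 18012 start sites as dashed lines. Motif 1 stands at 29.6% of bound against 1.31% of unbound sites, and the Initiator at 8.68% against 21.6%.

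Bound sites were also the starts of more annotated transcripts. The mean was 3.20 transcripts at bound and 2.00 at unbound most upstream sites, 2.43 and 1.73 at internal sites, and 2.20 and 1.58 at most downstream sites. Within the 295 genes the bound site had more transcripts in 142, fewer in 61 and as many in 92. The transcripts from the outermost sites used different start codons in 190 of the 299 genes (63.5%) and the same in 97 (32.4%), and shared some of several in 12 (4.01%). Different start codons were annotated in 145 of 225 genes bound at the most upstream but not the most downstream site (64.4%). They were annotated in 19 of 34 genes with the reverse arrangement (55.9%).

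Unbound sites of these genes were not empty in the relaxed lists, which hold background as well as peaks. An entry of the pooled list lay within 250 bp of 191 of 685 unbound sites (27.9%), against 365 of 1544 sites in the genes with no bound site (23.6%) and 24.2% of the unbound sites of all genes. The share was 26.6% at most upstream, 29.2% at internal and 26.3% at most downstream unbound sites. In the lists of replicates 1, 2 and 3 it was 28.6%, 31.7% and 13.9%. The thresholded peaks were the 4598 strongest entries of the pooled list, so a cut in signal separated bound from unbound sites. On either side of that cut values lay close together: the lowest signal at a bound site was 263 and the highest pooled signal at an unbound site was 259.5. The nearest summit lay inside the 250 bp limit by less than 50 bp at 30 sites of the 803 genes, and outside it by up to 50 bp at 24. The distance between outermost sites exceeded the 5000 bp limit by less than 500 bp in 49 genes, and fell short of it by up to 500 bp in 53 genes.

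Of 13 genes known in the fly literature for alternative promoters that met the distance rule, 4 had a bound site (30.8%), against 37.2% of all 803 genes and 31.1% of all protein-coding genes. The 9 with no bound site were the homeotic gene Antp, the ecdysone receptor gene EcR, the early ecdysone genes br and Eip74EF, the sex-behaviour gene fru, the Fos gene kay, the BMP ligand gene dpp, and the transcription factor genes lola and ct. The strongest entries at any of their sites were kay at rank 5884 and dpp at 6781 in replicate 2 and lola at 7089 in replicate 1. In no replicate did a site of these 9 genes reach the strongest 4598 peaks, and the br sites had no entry in any replicate. The 4 bound genes were Sxl and Mef2 at the most upstream site, and Tm1 and Eip75B at internal sites. Mef2, the muscle transcription factor, had 1830 with ranks of 443, 168 and 284. Its bound site had the starts of Pal1 and Pdrg1 within 1000 bp. Eip75B, an ecdysone-induced nuclear receptor, had 398 with ranks of 3081 and 4124 and no entry in replicate 3 at that site.

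The remaining lists, drawn up from general knowledge, ranged on both sides of the 37.2% of all 803 genes. Of genes for kinases and intracellular signalling 16 of 25 had a bound site (64%; 13, 17 and 11 genes in replicates 1, 2 and 3). The most upstream site was bound in 12 of them, among them the polarity kinase par-1 (signal 1828; ranks 150, 1073 and 77) and the GSK3 gene sgg (1534; ranks 456, 531 and 533), whose 9 other sites had no thresholded summit, although 1 of them ranked 2866 in replicate 1. Of cytoskeletal genes 12 of 20 were bound (60%; 12, 13 and 12 in the replicates), 10 at the most upstream site. The strongest bound site of the whole set belonged to this list: Jupiter, a microtubule-associated protein, with 4118 and ranks of 3, 14 and 4. It had the start of CG14710 within 1000 bp, and the par-1 site that of mei-W68. These peaks cannot be assigned to either gene.

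RNA-binding regulators were bound in 11 of 23 cases (47.8%; 11, 10 and 12 in the replicates), with 6 most upstream, 3 internal and 3 most downstream sites. They included the meiotic regulator bol (2243; ranks 149, 102 and 117) and the translational repressor pum (1657; ranks 251, 572 and 183), both at the most upstream site. The bol site had the start of Dhpr within 1000 bp. Neuronal channel and synapse genes were bound in 5 of 16 (31.2%; 4, 5 and 4), with the axon guidance ligand sli at its most upstream site (1349; ranks 485, 1129 and 237) and the teneurin Ten-a at an internal site (918; ranks 2158, 547 and 1379). Transcription and chromatin regulators were bound in 6 of 27 (22.2%; 8, 13 and 6 in the replicates), led by the TSC22-family gene bun (1938; ranks 140, 576 and 93). Ecdysone response genes were bound in 3 of 12 (25%; 3, 5 and 1). The strongest of these was tai, a coactivator of the ecdysone receptor, with 550 and ranks of 3140, 1509 and 1902. Its bound site had the start of CG9586 within 1000 bp. Replicate 2 held the most bound genes in every list but the RNA-binding regulators and the classical genes, and also over all 803 genes (320, against 288 and 275 in replicates 1 and 3). The members of each list are few, and some genes stand in 2 lists, so the counts are given without a test.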

How the data were processed

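On assembly dm6 the authors had deposited 5 lists of peaks: a relaxed list of 30000 entries per replicate, a pooled relaxed list, and a list of 4598 peaks thresholded by irreproducible discovery rate. Per the deposited notes, relaxed lists were called against 1 control alignment. No aligner, caller or threshold was given in the sources used here. Each peak has a deposited signal value, a score of the authors' peak caller. The deposited −log10 q-value stops at a ceiling and was not used to rank. Depth is unknown, so no counting interval could be given.

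Start sites of protein-coding transcripts came from Ensembl release 115 (BDGP6.54) and sequence from the NCBI Release 6 genome, in which 99.7% of 16278 annotated start codons read ATG. Sites within 250 bp were merged per gene. Each measure was taken on the thresholded list and on the 4598 strongest peaks of each replicate (mean ± SD, n = 3). Sites and genes are not replicates, so no test ran over them. The start of most transcripts represented a site. The neighbour setting and the setting with 2 sites were chosen after seeing the data, the other alternatives earlier.

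Members and lists were chosen with earlier results of these data known. Named genes were the 8 strongest bound only upstream, 8 only downstream, 4 only internally and up to 4 at both ends (only 1 qualified), without another gene's start within 1000 bp, the 2 strongest of each list, and the classical genes. Site marking was tested on simulated data. Python 3.11.15, numpy 2.4.6, pandas 2.3.3 and matplotlib 3.10.9 were used.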

Additional observations from a re-analysis of the deposited data

How the results depend on the processing

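No direction was reversed under the 12 settings tried. The shift stayed under the replicate SD in 10 of the 12 settings for the most upstream share, 8 for the most downstream share, 9 for their difference and 9 of 11 for the internal share, but in only 3 for the share of genes bound and 4 for the Motif 1 difference. The share of genes bound (37.2%) was 25.9% with summits within 100 bp, 22.8% with peaks at or above the median signal, 20.9% with peaks found in all 3 replicates, 31.6% without sites that have another gene's start within 250 bp, and 22.0% to 28.1% leaving out each replicate. The most upstream share (78.6%) ran from 75.7% to 80.4% leaving out each replicate. The most downstream share (14.7%) was 10.9% at or above the median signal, 11.9% in all 3 replicates, and 12.7% to 13.6% leaving out each replicate. Their difference (63.9 points) was 68.9 at or above the median signal. The internal share (14.7%) was 9.90% within 100 bp and 9.23% at or above the median signal. The difference in Motif 1 share between bound and unbound sites (28.3 points) was 37.9 within 100 bp, 49.4 at or above the median signal, 43.0 in all 3 replicates, and 39.1 to 40.7 leaving out each replicate. By construction these settings keep fewer peaks, or fewer sites where sites beside another gene were left out.

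For the settings chosen after seeing the data, genes with a neighbour's start within 1000 bp of any site were left out, or only genes with 2 sites were kept. Without genes that have neighbours the share of genes bound was 25.7%, the most upstream share 72.5%, the difference 57.3 points and the Motif 1 difference 23.4 points. In genes with exactly 2 sites these were 31.5%, 79.8%, 55.8 points and 34.0 points, the most downstream share was 24.0%, and internal sites do not exist. The cause of these shifts was not tested. Pairing between groups does not arise, since the samples form 1 group, and most upstream and most downstream shares were compared within each replicate. Peaks without read counts limit every share: an unbound site is a site with no thresholded summit, not a site without M1BP.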
